A study of Rattus norvegicus with 20 samples.

Results

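Synaptoneurosomes were compared with whole homogenate of the same tissue, the ventral hippocampus of control rats, on 5 arrays of each fraction out of the 20 arrays of the series. The 10 arrays were chosen by their titles, and the other 10 came from rats that had received a miR-17-5p mimic. The labels give 11 to 13 animals per condition. The control animals were male Sprague-Dawley rats of 2 months. Under isoflurane they had received a scrambled small RNA on both sides of the ventral hippocampus and then ketoprofen, so that surgery and injection were shared by both fractions. RNA of the homogenate was purified on columns, whereas RNA of synaptoneurosomes was precipitated with isopropanol and glycogen, so fraction and purification cannot be told apart. Both started from 100 ng of total RNA. Of 22093 genes with a probe set of exactly 1 symbol, each represented by its brightest probe set, 15465 were bright enough to be tested. Whether the arrays of one fraction came from different animals is not stated in the labels, so p-values measure the spread between these samples.

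Synaptoneurosomes are a preparation of pinched-off presynaptic endings that stay attached to resealed postsynaptic elements, obtained by filtering or spinning a brain homogenate. They hold mRNA that neurons carry into dendrites and axons for translation near synapses, while nuclei and cell bodies are largely left behind in the homogenate. Fine processes of astrocytes and microglia lie against synapses in the tissue and can be carried along in such a fraction. Each result is a difference between equal amounts of RNA, and with bulk RNA fewer cells of a type and less RNA per cell cannot be told apart.

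The 5 homogenate arrays resembled one another closely, with a median SD of a gene of 0.12 on the log2 scale, against 0.21 among synaptoneurosome arrays. Synaptoneurosome arrays 4 and 5 stood apart from arrays 1 to 3, with scores of 30.6 and 46.0 on the first component of the variation within fractions, which held 52.3% of that variation. The 8 other control arrays scored from -29.7 to 6.3. For many gene lists whose count moved by more than 1.5 times without these 2 arrays, the count without them is given too. Moves of some small counts, and of some lists described in parts, are not given. Replicate numbers pair the fractions, and a pair here means the homogenate and the synaptoneurosome array of one number.

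Fractions differed widely. In a limma fit with p-values adjusted by Benjamini-Hochberg over the whole table, 6150 genes (39.8%) passed an adjusted p below 0.05, which is the threshold for every call below. Of these, 1818 (11.8%) were higher and 4332 (28.0%) were lower in synaptoneurosomes. A difference of at least 2-fold was reached by 519 genes (3.36%), of which 313 (2.02%) were higher and 206 (1.33%) were lower. The 5 arrays of one fraction did not overlap the 5 of the other for 944 genes that were higher (6.1%) and 2711 that were lower (17.5%). The median difference over all tested genes was -0.06 on the log2 scale. The split between higher and lower depended on the scaling, since 29.6% of the calls were higher with the deposited values, 49.5% after quantile scaling and 65.2% with the median of each array set to 0. That last setting moves the median of all genes up by 0.16. No gene passed in opposite directions under any of these settings. Without synaptoneurosome arrays 4 and 5, 5500 genes passed, and they shared 1131 of the genes that were higher and 3370 of those that were lower, with 0 in the opposite direction.

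**Figure D1:**
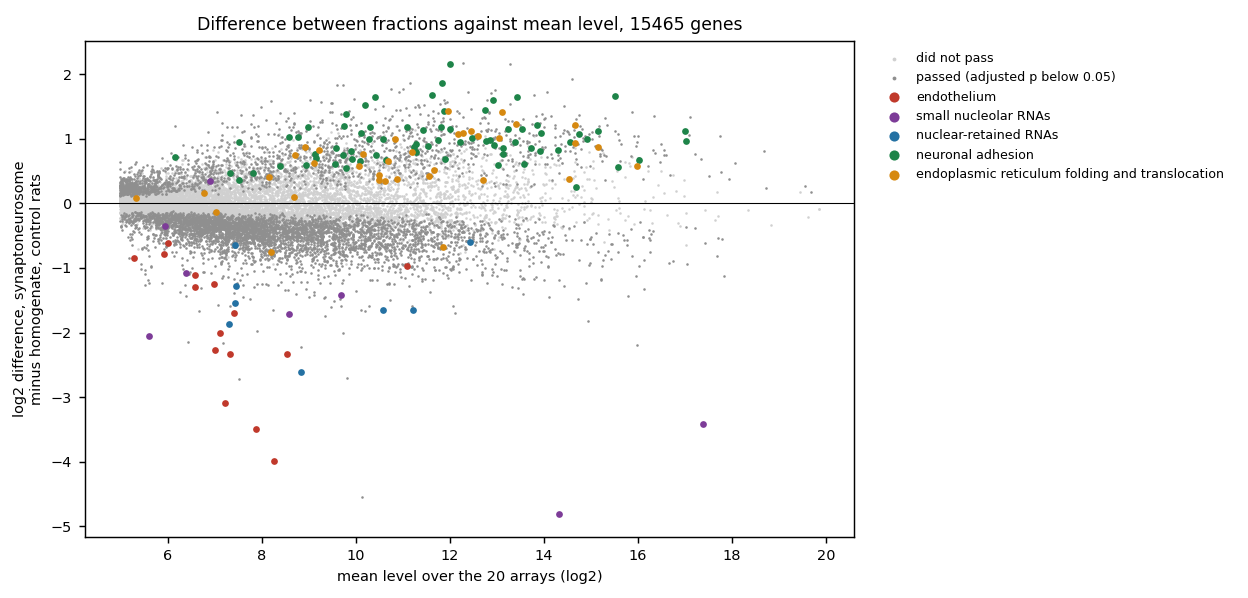
Log2 difference between synaptoneurosomes and homogenate of control rats (vertical axis) against the mean log2 level over the 20 arrays (horizontal axis) for 15465 genes, dark grey where the adjusted p was below 0.05 and coloured for members of 5 lists. Endothelial markers and nuclear-retained RNAs all lie below 0 and the small nucleolar RNA Snord22 at -4.81, while the 73 neuronal adhesion genes all lie above 0.

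The 14 largest rises without overlap between fractions included genes for receptors, secreted proteins, a glutamate transporter and enzymes of the endoplasmic reticulum. Lrp1b, an endocytic receptor of the low-density lipoprotein receptor family, read 10.89, 10.88, 10.95, 11.07 and 10.58 in the 5 homogenate arrays and 12.85, 13.16, 13.70, 12.75 and 12.66 in the 5 synaptoneurosome arrays. All synaptoneurosome arrays lay above all homogenate arrays, with a log2 difference of 2.15 ± 0.19 (SE) or 4.44-fold (limma, adjusted p = 2.6e-07). Sema3e, a secreted semaphorin that signals through plexin D1, read 10.57, 11.05, 10.99, 11.34 and 11.29 in homogenate and 12.36, 12.89, 13.60, 13.56 and 13.67 in synaptoneurosomes, a difference of 2.17 ± 0.23 (adjusted p = 1.22e-06). A second, dim probe set of Sema3e differed by 0.01 only. Pgap1, an enzyme of the endoplasmic reticulum that remodels GPI anchors, rose from 12.37, 11.98, 11.90, 12.16 and 12.25 to 14.21, 14.11, 14.68, 14.03 and 14.42, again without overlap (2.16 ± 0.17, adjusted p = 7.17e-08). Tenm1, a teneurin that binds latrophilins across the synapse, read 11.29, 10.66, 10.60, 10.84 and 11.22 in homogenate and 12.87, 12.19, 12.82, 12.85 and 13.16 in synaptoneurosomes (1.86 ± 0.18, adjusted p = 6.76e-07).

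Receptors and a transporter stood beside them. Htr2c, a serotonin receptor, read 11.41, 11.88, 11.26, 11.59 and 12.40 in homogenate and 12.87, 13.14, 13.44, 13.39 and 14.50 in synaptoneurosomes, with replicate 5 the highest in both fractions (1.76 ± 0.27, adjusted p = 7.16e-05). Npy2r, a receptor for neuropeptide Y found on axon endings, read 8.19, 8.37, 8.49, 8.82 and 9.10 against 9.30, 9.38, 10.20, 11.24 and 11.97 (1.82 ± 0.45, adjusted p = 0.00369). Its 2 highest values came from synaptoneurosome arrays 4 and 5, and without them the difference was 1.03 (adjusted p = 0.0395). Slc1a1, the neuronal glutamate transporter, rose by 1.71 ± 0.22. Atp6ap2, an accessory protein of the proton pump, rose by 1.93 ± 0.28, and Dio2, the deiodinase that activates thyroid hormone, by 1.83 ± 0.23. The other 5 were the secreted guidance ligand Slit2 (1.72 ± 0.21), the protease inhibitor neuroserpin, Serpini1 (1.72 ± 0.25), the heparan sulfate proteoglycan Gpc4 (1.76 ± 0.21), the follistatin-like Fstl5 (1.78 ± 0.20) and the cholesterol ester hydrolase Nceh1 (1.72 ± 0.18).

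The 14 largest falls without overlap included 3 small non-coding RNAs, several blood vessel genes and transcripts that tend to stay in the nucleus. Snord22, a small nucleolar RNA, read 16.05, 16.14, 16.52, 17.23 and 16.90 in homogenate and 12.74, 11.34, 12.42, 12.07 and 10.23 in synaptoneurosomes, 28-fold lower on the linear scale (-4.81 ± 0.41, adjusted p = 1.18e-07). Rgs5, a G protein regulator that marks pericytes, read 12.29, 12.87, 12.16, 12.25 and 12.39 against 8.06, 8.63, 7.97, 6.89 and 7.71 (-4.54 ± 0.26, adjusted p = 7.62e-10). Both genes were separated by more than 3 log2 units between the closest arrays of the fractions. Flt1, a receptor for vascular endothelial growth factor, fell from 9.75, 9.69, 9.38, 9.65 and 9.70 to 6.26, 6.26, 6.07, 5.99 and 6.09, with a spread of under 1 log2 unit in each fraction (-3.50 ± 0.09, adjusted p = 3.1e-15). A second probe set of Flt1 fell less, by 0.86. Rpph1, the RNA of ribonuclease P, was the weakest of these 14: it read 16.61, 16.84, 16.98, 16.69 and 17.10 in homogenate and 15.85, 15.30, 16.05, 13.52 and 12.55 in synaptoneurosomes (-2.19 ± 0.57, adjusted p = 0.00559), with arrays 4 and 5 the lowest. Without them its difference was -1.11 (adjusted p = 0.0563).

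**Figure D2:**
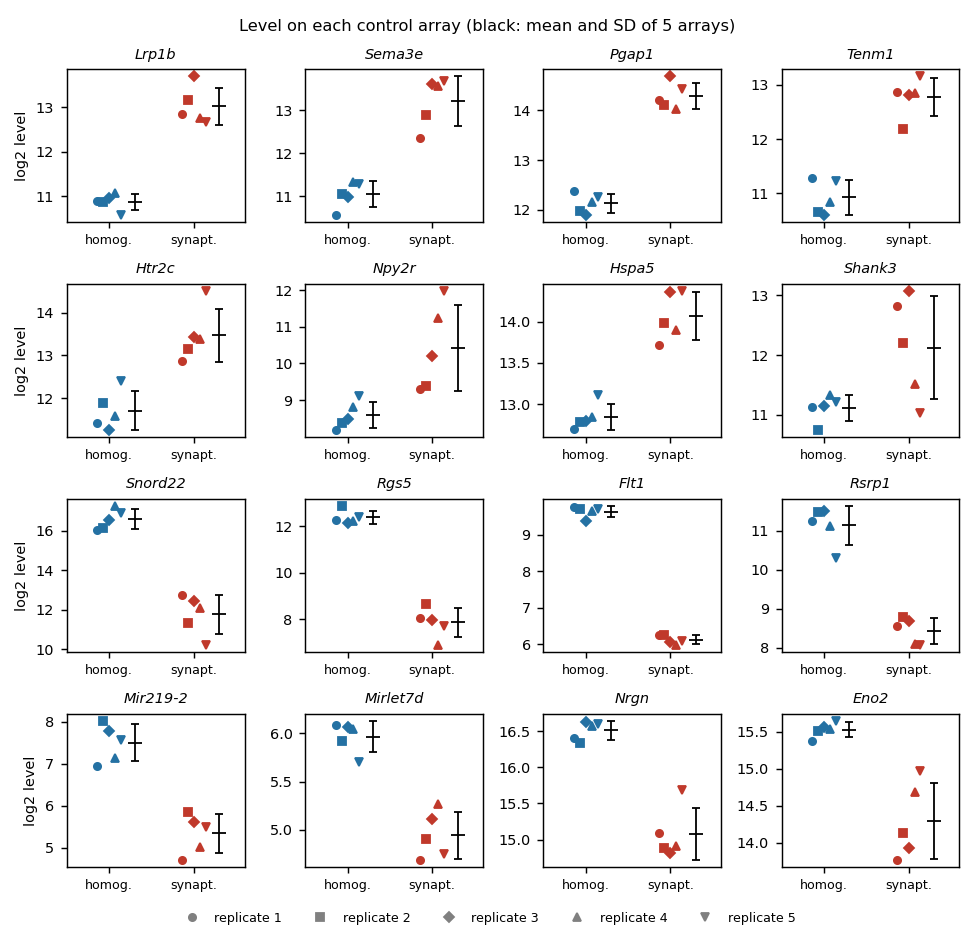
Log2 level of 16 genes on each of the 5 homogenate (blue) and 5 synaptoneurosome (red) arrays of control rats, with the replicate number as the marker and the mean with SD in black; each panel has its own vertical axis. Fractions do not overlap except for Shank3, whose synaptoneurosome replicate 5 reads 11.03, among the homogenate values.

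Among markers of the vessel wall, those of endothelium were lower throughout. All 15 tested endothelial markers fell, against 28.0% of all genes, with a median difference of -1.70 and no overlap between fractions for 14 of them. Besides Flt1, the falls included Adgrf5 (-3.99 ± 0.12) and Adgrl4 (-3.09 ± 0.13), adhesion G protein-coupled receptors of vessels, Pecam1, an adhesion molecule between endothelial cells (-2.34 ± 0.12), Abcb1a, the drug efflux pump of the blood-brain barrier (-2.33 ± 0.12), and Tek, the receptor of angiopoietins (-2.27 ± 0.12). The smallest fall was that of Tie1, at -0.62. Averaged over the 15 genes, the level ranged from 7.98 to 8.50 in homogenate and from 6.19 to 6.60 in synaptoneurosomes. Of 11 markers of pericytes and smooth muscle, 7 fell and 0 rose, or 4 fell under either other scaling or with the 10 control arrays alone. They included Abcc9, a potassium channel regulator of pericytes, at -1.12 ± 0.07, smooth muscle actin, Acta2, at -1.07 ± 0.24 and the receptor Pdgfrb at -0.49 ± 0.11 (adjusted p = 0.00236, or 0.0539 after quantile scaling). Among genes of axon guidance the only 2 that fell were Robo4 (-0.48 ± 0.07) and Ephb4 (-0.38 ± 0.06), receptors known from endothelium. Of the 12 markers of fibroblasts and meninges, Fn1, fibronectin, fell by 1.16 and Lum, lumican, rose by 0.79, and 10 did not pass.

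RNAs that act or are processed in the nucleus were also lower. All 8 tested transcripts described as nuclear-retained fell, with a median of -1.60. Meg3, a long non-coding RNA, read 11.79, 12.51, 12.01, 11.93 and 11.28 in homogenate and 10.90, 10.89, 10.39, 9.50 and 9.61 in synaptoneurosomes (-1.65 ± 0.36, adjusted p = 0.00139). The arrays did not overlap, and arrays 4 and 5 were the lowest of the fraction. Gas5, a host of small nucleolar RNAs, fell by 1.87, the cyclins Ccnl1 and Ccnl2, which act with splicing factors, by 1.28 and 1.55, and Wsb1, an adaptor of a ubiquitin ligase, by 2.61. Of 8 small nucleolar RNAs 6 fell and 0 rose, with a median of -1.57. They included Snord33 (-3.41 ± 0.43), Snora30 (-2.05 ± 0.20) and Snora58 (-1.08 ± 0.13). Without arrays 4 and 5 the 6 falls remained in number, 1 rise appeared, and the median was -1.28. Small RNAs can be recovered differently by columns and by precipitation, and the part of the purification in these values was not tested.

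Messengers for nuclear proteins fell less but in large numbers. Of 86 genes of SR proteins and the spliceosome, which remove introns, 64 fell and 1 rose (median -0.47), against 28.0% and 11.8% of all genes. Rsrp1 read 11.25, 11.49, 11.52, 11.13 and 10.31 in homogenate and 8.55, 8.79, 8.69, 8.10 and 8.08 in synaptoneurosomes (-2.70 ± 0.25, adjusted p = 3.54e-07). Replicate 5 was the lowest in both fractions, and the fractions did not overlap. The splicing factors Srsf2 (-1.44 ± 0.11) and Srsf6 (-1.05 ± 0.09) and the kinase of SR proteins, Clk1 (-2.23 ± 0.38), fell as well, and the 1 rise, of Snrpd1 (0.31 ± 0.12), did not pass with the replicate block (adjusted p = 0.0674) or without any 1 of homogenate arrays 1 to 3 and synaptoneurosome arrays 1 to 3 (highest adjusted p 0.0996, without synaptoneurosome array 1). In this list 2 genes rose without arrays 4 and 5. Of 360 zinc finger genes, most of them transcription factors, 183 fell and 5 rose (median -0.23). The steadiest falls were those of Zfp366 (-1.23 ± 0.07), Zkscan3 (-0.84 ± 0.07) and Zfp385b (-0.78 ± 0.06). Zfp423 (0.51 ± 0.15) and Zbtb41 (0.55 ± 0.18) were among the 5 that rose, and the call of Zbtb41 did not hold without synaptoneurosome array 3 (adjusted p = 0.0592). Rises numbered 17 and falls 123 without arrays 4 and 5, 13 and 91 after quantile scaling and 23 and 75 with array medians at 0. Of 34 histone genes 18 fell and 1 rose, with Hist1h4m at -1.82 ± 0.18 and H1f4, a linker histone, at -1.67 ± 0.21. Near-identical histone copies can share probes, so single members are uncertain. Of 125 genes of chromatin modifiers and Mediator, the bridge between transcription factors and RNA polymerase, 59 fell and 2 rose, with 35 falls after quantile scaling, 28 falls with array medians at 0 and 4 rises without arrays 4 and 5. Kat7, a histone acetyltransferase, fell by 1.0, Med8 by 0.80 and the demethylase Kdm1a by 0.64.

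Probe sets named for microRNA precursor genes were examined next. MicroRNAs are cut from hairpins within longer nuclear transcripts, and the mature strand finds its targets through its seed, bases 2 to 8. The probe sets measure RNA of the precursor gene, and the mature microRNA was not measured. Of 176 precursor genes tested, 23 fell (13.1%) and 11 rose (6.25%), both smaller shares than the 28.0% and 11.8% of all genes. The list gave the opposite balance when array medians were set to 0 (18 fell and 37 rose), and 36 falls and 10 rises with the replicate block. Without synaptoneurosome array 4 the rises numbered 7. A fall of at least 2-fold was seen for 12 and a rise of that size for 0. Of the 176, 168 were found by symbol in the RefSeq table of assembly GRCr8, from which the mature sequences are shown for 6 precursors that fell. The arm usually taken as the guide strand is shown for each, with the seed in capitals.
rno-let-7d-5p: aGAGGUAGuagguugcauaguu
rno-miR-219a-5p: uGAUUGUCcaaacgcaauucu
rno-miR-29a-3p: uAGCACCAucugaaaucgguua
rno-miR-29c-3p: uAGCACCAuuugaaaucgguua
rno-miR-128-3p: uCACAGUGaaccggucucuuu
rno-miR-181b-5p: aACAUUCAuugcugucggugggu
The 2 members of the miR-29 family share the seed AGCACCA, and the other 4 seeds differ. Per GRCr8, let-7d-5p lies on chr17:16322273-16322294 (plus strand) and miR-219a-5p of Mir219-2 on chr3:33516561-33516581 (minus strand). The miR-29a-3p sequence lies on chr4:60617968-60617989 (minus strand) and miR-29c-3p on chr13:109099412-109099433 (plus strand). On the same chromosome and strand as the latter, miR-128-3p of Mir128-1 lies at chr13:42251933-42251953 and miR-181b-5p of Mir181b1 at chr13:52037263-52037285.

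Mir219-2, whose microRNA is known for its part in the maturation of oligodendrocytes, read 6.95, 8.01, 7.78, 7.14 and 7.57 in homogenate and 4.71, 5.85, 5.62, 5.02 and 5.50 in synaptoneurosomes. Each pair fell by about the same amount, and the fractions did not overlap (-2.15 ± 0.22, adjusted p = 8.05e-07). Mirlet7d, of the let-7 family that restrains growth genes, read 6.09, 5.92, 6.07, 6.04 and 5.70 against 4.69, 4.90, 5.11, 5.27 and 4.75 (-1.02 ± 0.12, adjusted p = 3.36e-06). The transcript antisense to Mirlet7f-1, Mirlet7f-1os, fell by 1.30, and the strand its probes detect is not given in the sources used here. The next 5 were named after their values were seen. Mir124-1, a precursor of the neuronal microRNA miR-124, fell by 1.97 (8.75, 9.15, 9.14, 9.0 and 8.29 against 7.14, 7.30, 7.22, 6.44 and 6.36, adjusted p = 3.65e-06). Mir29c fell by 1.38 and by 0.70 with a second probe set, Mir29a by 1.03, Mir181b1 by 1.32 and Mir128-1 by 1.44. The fall of Mir128-1 was -0.92 without arrays 4 and 5 (adjusted p = 0.127). The steadiest rises were small: Mir130b 0.40 ± 0.11, Mir500 0.35 ± 0.10 and Mir196c 0.51 ± 0.15, and that of Mir500 did not pass without arrays 4 and 5 (adjusted p = 0.0569). Of 16 genes of the machinery that makes and uses microRNAs, 4 fell and 0 rose, and the 25.0% that fell is close to the share of all genes. The number that fell was 1 after quantile scaling, 0 with array medians at 0, 1 without homogenate array 1 or 2 or synaptoneurosome array 4, and 2 fell without homogenate array 3, 4 or 5 or synaptoneurosome array 3 or 5. In the list 3 rose and 3 fell without arrays 4 and 5. Cnot1, a scaffold of the deadenylase complex, fell by 0.27, a call lost with array medians at 0 (adjusted p = 0.321).

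Most genes of neuronal adhesion rose. Such proteins span the membrane and hold axon and dendrite together. Of 73 tested genes, 65 rose and 0 fell, against 11.8% and 28.0% of all genes, with a median of 0.95 and values above 0 for all 73. For 43 of them the fractions did not overlap. Chl1, a cell adhesion molecule of the L1 family, read 14.55, 14.43, 14.66, 14.59 and 14.67 in homogenate and 16.15, 15.91, 16.74, 16.26 and 16.18 in synaptoneurosomes (1.67 ± 0.13, adjusted p = 4.11e-08). Every pair rose by more than 1 log2 unit. Tenm2, another teneurin, rose by 1.65 and the atypical cadherin Fat3 by 1.52. Of 32 protocadherins, homophilic receptors by which neurons recognise their own branches, 29 rose and 1 fell, with a median of 1.07. Pcdhb19 read 8.23, 8.16, 8.10, 8.33 and 8.09 in homogenate and 9.16, 9.33, 9.43, 9.62 and 9.58 in synaptoneurosomes, without overlap (1.24 ± 0.12, adjusted p = 4.05e-07). Pcdhb17 (1.15 ± 0.12) and Pcdh17 (1.12 ± 0.15) rose beside it, and the fall was that of Pcdhgb1 (-0.40 ± 0.10, adjusted p = 0.0659 with array medians at 0). Genes of the protocadherin clusters have closely similar sequences and can share probes. Of 57 genes of axon guidance 31 rose and 2 fell, with the plexin Plxna1 at 1.27 ± 0.19 beside Sema3e and Slit2. Pair medians for adhesion ran from 0.52 to 1.39 and were highest in pairs 4 and 5. Without arrays 4 and 5, 43 adhesion genes, 21 protocadherins and 17 guidance genes rose, with medians of 0.66, 0.76 and 0.34.

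Among receptors of the neuronal surface there were rises and no falls, and many members did not pass. Of 22 glutamate receptor genes 13 rose and 0 fell (median 0.66), or 9 rose without arrays 4 and 5 (median 0.44). Gria3, an AMPA receptor subunit, read 14.43, 14.10, 14.59, 14.24 and 14.20 in homogenate and 15.35, 14.90, 15.88, 15.56 and 15.63 in synaptoneurosomes (1.15 ± 0.17, adjusted p = 5.01e-05). Grin2a, an NMDA receptor subunit, read 14.28, 14.44, 14.97, 14.61 and 14.37 against 15.68, 15.27, 16.08, 15.78 and 15.42 (1.11 ± 0.14, adjusted p = 1.1e-05). Neither gene overlapped between fractions, and the metabotropic receptor Grm3 rose by 1.15 ± 0.12. Of 17 receptor genes for GABA and glycine 9 rose and 0 fell, with Gabrg3 (1.43 ± 0.22), Gabra2 (1.06 ± 0.19) and Gabrg1 (0.97 ± 0.14) among them, and 4 rose without arrays 4 and 5. Of 59 neuromodulator receptors 19 rose and 0 fell, with Npy1r (1.42 ± 0.22) and the adrenergic receptor Adra1a (0.71 ± 0.14) among them, and 40 did not pass. The rises numbered 11 without arrays 4 and 5 and 35 with array medians at 0. A second, dim probe set of Adra1a differed by 0.03. Pair medians of the 3 receptor lists were at most 0.56 in pairs 1 to 3 and at least 0.80 in pairs 4 and 5.

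Ion channels were grouped by the role of the subunit after the values were seen. Over all 32 tested genes of sodium and calcium channels 19 rose and 2 fell. Members that are neither pore nor beta subunits are in neither group below, and some of them rose. All 16 tested pore subunits of voltage-gated sodium and calcium channels rose, with a median of 0.97, and the same number rose without arrays 4 and 5 and under both other scalings. Cacna1e, the pore of R-type calcium channels, read 14.14, 13.81, 14.11, 14.16 and 14.02 in homogenate and 15.50, 15.13, 15.68, 15.35 and 15.07 in synaptoneurosomes (1.30 ± 0.11, adjusted p = 1.18e-07). All pairs rose by more than 1 log2 unit. Cacna1i, a T-type pore, rose by 1.31 and Cacna1a, the P/Q-type pore of transmitter release, by 0.99. The cytosolic beta subunits of calcium channels, which help bring the pore to the membrane, gave 2 falls and 0 rises among 4. Cacnb2 read 9.66, 9.67, 9.79, 10.08 and 9.72 against 8.95, 9.15, 8.85, 9.34 and 9.11 (-0.70 ± 0.09, adjusted p = 1.67e-05), and Cacnb4 fell by 0.68 (adjusted p = 0.00569, or 0.069 without arrays 4 and 5, which leaves 1 fall). Of 60 potassium channel pores 27 rose and 0 fell, and 33 did not pass, with 18 rises and 1 fall without arrays 4 and 5 and 42 rises with array medians at 0, whereas of 12 auxiliary subunits 5 fell and 1 rose. Kcnt2 (1.35 ± 0.19), Kcnma1 (0.96 ± 0.11) and the pacemaker channel Hcn2 (0.79 ± 0.14) rose. The cytosolic subunits Kcnab1 (-0.85 ± 0.10) and Kcnip4 (-0.71 ± 0.17) fell. Falls of auxiliary subunits numbered 2 with array medians at 0 and 2 without arrays 4 and 5, when 2 rose. Of 23 genes of calcium pumps, exchangers and release channels 12 rose and 0 fell (median 0.44), or 9 rose without arrays 4 and 5 (median 0.27). The rises were led by the sodium-calcium exchanger Slc8a1 (1.24 ± 0.10) and the calcium pumps Atp2b3 (1.35 ± 0.19) and Atp2b1 (0.93 ± 0.17).

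**Figure D3:**
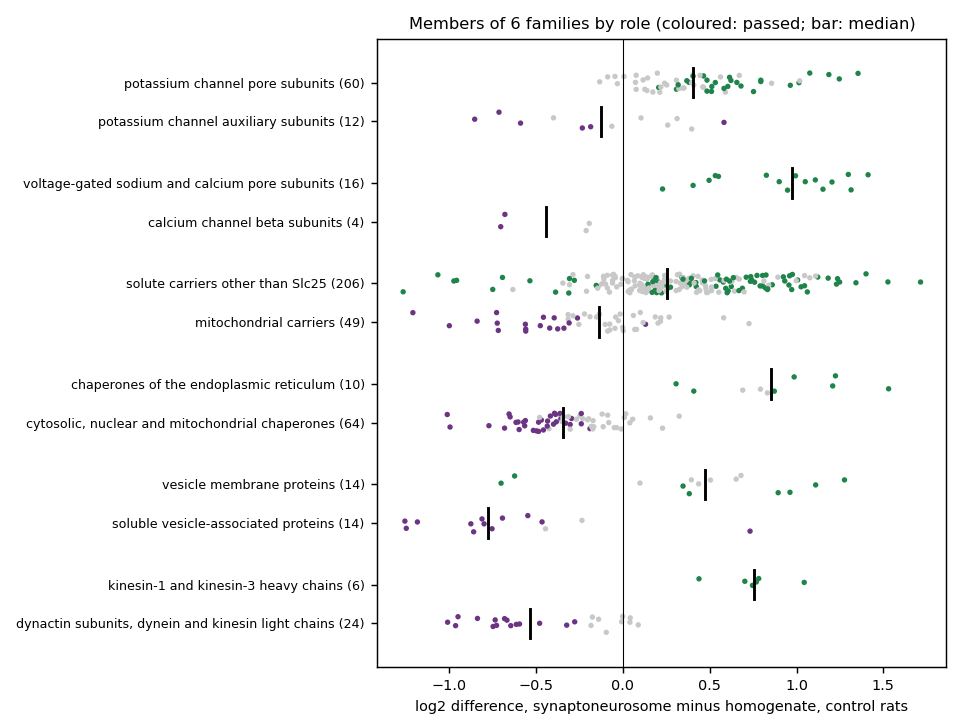
Log2 difference between synaptoneurosomes and homogenate of control rats (horizontal axis) for tested members of 6 families. Each family is divided by role into an upper and a lower row, in groups made after the values were seen. Tested genes of sodium and calcium channels, synaptic vesicles and motor proteins that are in neither group are left out. Coloured points passed, grey points did not, and black bars are medians. In each family the median of the upper row is the higher, for example with medians of 0.85 and -0.34 for chaperones.

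Some genes of the secretory route rose too. Of 36 genes for folding and translocation in the endoplasmic reticulum, where membrane and secreted proteins are made, 14 rose and 2 fell (median 0.65). Hspa5, the main chaperone of its lumen, read 12.70, 12.78, 12.79, 12.84 and 13.11 in homogenate and 13.72, 13.99, 14.36, 13.90 and 14.37 in synaptoneurosomes, without overlap (1.22 ± 0.18, adjusted p = 4.75e-05). Hsp90b1 (1.21 ± 0.15), the disulfide isomerase Pdia3 (0.94 ± 0.13) and the translocon subunit Sec63 (1.13 ± 0.16) rose too. The 2 falls were those of Sec61g, the small subunit of the translocon (-0.75 ± 0.12), and Srp72, a protein of the cytosolic signal recognition particle (-0.67 ± 0.08). Chaperones were again grouped after the values were seen. Of 10 taken as chaperones of the endoplasmic reticulum 7 rose and 0 fell, and of 64 others 0 rose and 33 fell. The others are all remaining chaperones, and the compartment of each was not checked. The rises among the 10 numbered 4 without arrays 4 and 5, and the falls among the others 20 after quantile scaling. Hspa13 (1.53 ± 0.17) stood at one end and the cytosolic Dnajb4 (-1.01 ± 0.09), Dnajb1 (-0.66 ± 0.06) and Dnajc7 (-0.57 ± 0.04) at the other. Without arrays 4 and 5, 9 genes for folding and translocation rose and 2 fell, with a median of 0.18, and pair medians ran from 0.10 to 1.46.

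Of 104 genes for GPI anchors and glycan synthesis 17 rose and 4 fell, and the 16.3% that rose is not far from the 11.8% of all genes. Beside Pgap1, the glycosyltransferase Galnt1 (1.01 ± 0.10) and Pigq (0.54 ± 0.07) rose, whereas Piga, of the same first step of anchor synthesis as Pigq, fell by 1.09. Rises in this list numbered 11 without arrays 4 and 5, 27 after quantile scaling, 48 with array medians at 0 and 27 without synaptoneurosome array 2. Of 28 lysosomal genes 7 rose and 0 fell, among them the membrane proteins Scarb2 (0.79 ± 0.11), Lamp2 (1.01 ± 0.21) and Npc1 (0.88 ± 0.22). The number that rose was 11 with the replicate block, 15 with array medians at 0, 14 without synaptoneurosome array 1 and 3 without arrays 4 and 5. Solute carriers, which move nutrients and ions over membranes, were parted into the Slc25 family and all others, after the values were seen. The Slc25 family is called mitochondrial carriers here, and the membrane of each carrier was not checked. Of 206 outside the Slc25 family 67 rose (32.5%, against 11.8% of all genes) and 12 fell (5.83%). Of 49 mitochondrial carriers 1 rose (2.04%) and 17 fell (34.7%, not far from the 28.0% of all genes). The lactate carrier Slc16a7 rose by 0.96 ± 0.12 and Slc25a16, a carrier of the inner mitochondrial membrane, fell by 0.72. The thiamine carrier Slc19a3 (-1.07 ± 0.09) and the iron exporter Slc40a1 (-0.96 ± 0.09) fell. Without arrays 4 and 5, 33 carriers outside Slc25 rose and 12 fell, and 3 mitochondrial carriers rose. With array medians at 0 these carriers gave 119 rises and 7 falls, and the mitochondrial ones 8 rises and 10 falls.

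Many messengers for proteins of the cytosol and of mitochondria were lower. Among all genes, 28.0% fell and 11.8% rose. Of 20 glycolytic genes 13 fell and 1 rose (median -0.46). Eno2, neuronal enolase, read 15.37, 15.51, 15.56, 15.54 and 15.64 in homogenate and 13.77, 14.13, 13.93, 14.68 and 14.97 in synaptoneurosomes (-1.23 ± 0.19, adjusted p = 6.97e-05). The fractions did not overlap, and arrays 4 and 5 were the highest of the synaptoneurosomes. After quantile scaling the difference of Eno2 was -0.68 (adjusted p = 0.185), and the glycolytic falls numbered 7. Pgam1 fell by 1.19 and Aldoa by 0.84, while Hk2, a hexokinase that binds mitochondria, rose by 0.59. Of 92 genes of oxidative phosphorylation 39 fell and 1 rose, with cytochrome c, Cycs, at -1.17 ± 0.16 and the complex I subunits Ndufv3 at -0.65 ± 0.07 and Ndufc1 at -0.65 ± 0.08. The 1 rise was that of Cox6a1 (1.19 ± 0.38), whose adjusted p was 0.0553 without homogenate array 3 and 0.0529 without synaptoneurosome array 5. Of 21 genes of the citric acid cycle 9 fell and 1 rose, Suclg1 (-0.85 ± 0.10) and Idh3g (-0.85 ± 0.12) falling. Of 74 genes of the mitochondrial ribosome 40 fell and 0 rose, with Mrpl17 at -0.99 ± 0.12. After quantile scaling 17 genes of oxidative phosphorylation and 16 of the mitochondrial ribosome fell. At that setting 2472 of all 15465 genes fell, so both shares lay closer to that of all genes. Without arrays 4 and 5, 2 genes of the citric acid cycle rose.

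Among genes of protein turnover, the cytoskeleton and translation factors, falls also outnumbered rises. They did so among all genes too, where 28.0% fell and 11.8% rose. Of 47 proteasome genes 27 fell and 1 rose (median -0.47). Psmd8, of the regulatory cap, read 9.15, 9.27, 9.35, 9.25 and 9.34 in homogenate and 7.91, 8.28, 8.11, 8.34 and 8.39 in synaptoneurosomes, without overlap (-1.07 ± 0.08, adjusted p = 5.43e-08). Psmd13 fell by 0.95 and Psmd11 by 0.75, and the 1 rise was that of Psmb8, a subunit of the immunoproteasome (0.38 ± 0.09). Of 54 genes of tubulins, actins and their regulators 32 fell and 2 rose, with Tubg2 at -0.91 ± 0.09 and Tubb5 at -0.70 ± 0.08. Of 71 translation factors 37 fell and 2 rose: the cap-binding Eif4e fell by 0.67, the termination factor Gspt1 by 0.64 and Eif3d by 0.61. Of 34 aminoacyl tRNA synthetases 14 fell and 1 rose, Yars1 falling by 0.64. After quantile scaling 19 proteasome genes, 20 of tubulins and actins, 19 translation factors and 8 synthetases fell. Rises numbered 5 for translation factors and 0 for tubulins and actins without arrays 4 and 5. Cytosolic ribosomal proteins gave 19 rises (11.7%, the share of all genes being 11.8%) and 4 falls (2.45%) among 163 genes, with a median of 0.18. In mimic rats, whose comparison is described below, they gave 7 rises and 6 falls, with a median of -0.02. Rplp0, of the ribosomal stalk, rose by 0.70. The rises numbered 12 without synaptoneurosome array 2, 58 without array 4, 43 without arrays 4 and 5, 41 after quantile scaling and 60 with array medians at 0, while falls numbered 9 without array 1, 1 without array 3 and 1 without arrays 4 and 5. Pair medians ran from -0.37 to 0.49. Near-identical copies of ribosomal protein genes can share probes, so single members are uncertain.

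**Figure D4:**
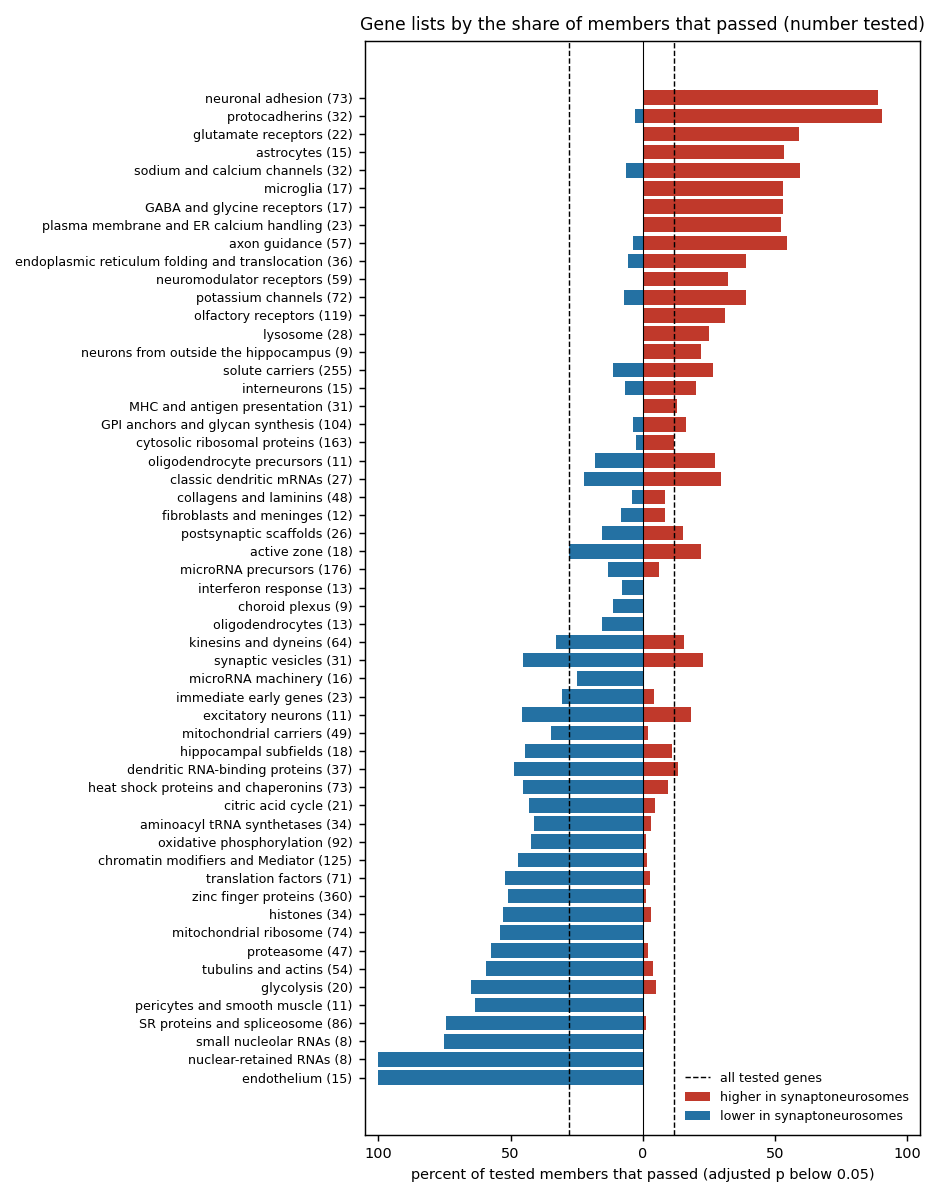
Percent of the tested members of each gene list that were higher (red, to the right) or lower (blue, to the left) in synaptoneurosomes of control rats at an adjusted p below 0.05, with the number tested in brackets; dashed lines are the shares among all tested genes, 11.8% higher and 28.0% lower. Adhesion genes and protocadherins lie at the top, endothelium and nuclear-retained RNAs at the bottom.

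Genes for scaffolds and the active zone of the synapse gave both rises and falls. The shares that fell were near or below the 28.0% of all genes. The rises were 4 genes in each list: 15.4% of scaffolds, not far from the 11.8% of all genes, and 22.2% of active zone genes. With the 10 control arrays alone, 3 scaffolds and 2 active zone genes rose. Of 26 postsynaptic scaffolds 4 rose (15.4%) and 4 fell (15.4%), with a median of -0.03, and 7 rose after quantile scaling. Shank3, a scaffold of the postsynaptic density whose mRNA lies in dendrites, read 11.13, 10.75, 11.15, 11.33 and 11.21 in homogenate and 12.82, 12.21, 13.07, 11.51 and 11.03 in synaptoneurosomes. Arrays 1 to 4 lay above all homogenate arrays, array 4 by little, and array 5 lay among them (1.01 ± 0.32, adjusted p = 0.0189). The difference was 1.59 without arrays 4 and 5 (adjusted p = 0.000249), while the adjusted p was 0.0519 without array 1 and 0.0572 without array 3. Homer2 rose by 1.01 ± 0.26, and Gphn, the scaffold of inhibitory synapses (-0.63 ± 0.12), Dlg3 (-0.58 ± 0.11) and Pick1 (-0.43 ± 0.06) fell. Without arrays 4 and 5, 8 scaffolds rose and 4 fell, and with the replicate block 4 rose and 8 fell. The rises numbered 2 without homogenate array 2 or 3 or synaptoneurosome array 2, and 1 without synaptoneurosome array 1 or 3. The falls numbered 7 without synaptoneurosome array 1. Of 18 active zone genes 4 rose (22.2%) and 5 fell (27.8%, against 28.0% of all genes). Pclo, a scaffold of vesicle clusters, rose by 0.36, and Lin7a (-0.99 ± 0.12), Ppfia2 (-0.53 ± 0.12) and the priming factor Unc13b (-0.38 ± 0.08) fell. Rises in the active zone numbered 7 without arrays 4 and 5, and 2 without any 1 of homogenate arrays 1 and 3 and synaptoneurosome arrays 1 and 3.

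Synaptic vesicle genes gave both rises and falls. Of 31 in the list 7 rose and 14 fell, with 9 rises and 4 falls after quantile scaling, so that the balance turned, and 4 rises and 14 falls without arrays 4 and 5. In a grouping made after the values were seen, 6 of 14 vesicle membrane proteins rose and 2 fell, or 3 and 1 without arrays 4 and 5, and 1 of 14 soluble proteins rose and 11 fell, or 4 fell after quantile scaling. Sv2c, a membrane glycoprotein of vesicles, read 8.33, 9.44, 8.49, 8.43 and 8.31 in homogenate and 9.07, 10.35, 9.86, 9.95 and 10.15 in synaptoneurosomes (1.28 ± 0.26, adjusted p = 0.00074). Replicate 2 was the highest in both fractions, and its homogenate value lay among the synaptoneurosome values. Syt4, a synaptotagmin, rose by 1.11. Syt7 rose by 0.35, but a second, dimmer probe set of it was lower by 1.04. Sncb, beta-synuclein, read 9.24, 9.12, 8.74, 8.90 and 9.28 against 8.02, 7.97, 7.37, 7.66 and 7.98 (-1.26 ± 0.12, adjusted p = 3.75e-07), and Cplx1, complexin, fell by 1.18. Syn1, synapsin, fell by 0.86, a call lost after quantile scaling (adjusted p = 0.54).

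The 27 mRNAs best known from dendrites gave 8 rises (29.6%) and 6 falls (22.2%), against 11.8% and 28.0% of all genes. After quantile scaling these mRNAs gave 13 rises and 3 falls. The rises included those of Itpr1, the calcium release channel (0.84 ± 0.15), Arc, an activity-regulated postsynaptic protein (1.06 ± 0.28), and Grin1, the obligatory NMDA receptor subunit, which was named after its value was seen (0.76). Arc read 8.61, 7.98, 8.82, 8.52 and 8.56 in homogenate and 10.26, 9.57, 10.29, 8.68 and 8.98 in synaptoneurosomes (adjusted p = 0.00591), with arrays 1, 2, 3 and 5 above all homogenate arrays and array 4 among them. The falls were led by Rgs5 and by Nrgn, neurogranin, which binds calmodulin. Nrgn read 16.41, 16.34, 16.63, 16.57 and 16.60 against 15.09, 14.89, 14.81, 14.91 and 15.69 (-1.43 ± 0.13, adjusted p = 3.75e-07), without overlap and with array 5 the highest synaptoneurosome value. After quantile scaling Nrgn differed by -0.69 (adjusted p = 0.105), and Calm3, a calmodulin gene, which fell by 0.92, had an adjusted p of 0.667. Rises numbered 5 without homogenate array 2 or synaptoneurosome array 1 and 4 without synaptoneurosome array 3. Arc was the only one of 23 immediate early genes that rose, while 7 fell (30.4%, near the share of all genes), or 12 with the replicate block and 4 with array medians at 0. Jun (-1.21 ± 0.17), Egr1 (-0.96 ± 0.24) and Dusp6 (-0.53 ± 0.12) were among those that fell. Of 37 RNA-binding proteins that act in dendrites or on neuronal mRNA 5 rose and 18 fell, with Elavl1 (-0.67 ± 0.06), Khdrbs1 (-0.68 ± 0.10) and Hnrnpa2b1 (-0.65 ± 0.08) falling. Rises among them numbered 3 without any 1 of homogenate arrays 1, 2 and 4 and synaptoneurosome arrays 1 to 4.

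Some motor proteins were grouped after the values were seen, and many of the 64 tested kinesins and dyneins are in neither group. The heavy chains Kif5a, Kif5b and Kif5c of kinesin-1 and Kif1a, Kif1b and Kif1c of kinesin-3 walk along microtubules into axons and dendrites. All 6 rose (median 0.76). Kif5c read 15.45, 15.19, 15.22, 15.28 and 15.60 in homogenate and 16.76, 16.36, 16.82, 15.90 and 16.12 in synaptoneurosomes, without overlap (1.04 ± 0.16, adjusted p = 4.71e-05). Kif1a (0.78 ± 0.16) and Kif1b (0.70 ± 0.15) rose with it. Of 24 dynactin subunits, intermediate and light chains of dynein and light chains of kinesin 0 rose and 15 fell (median -0.54). Dctn2 read 8.86, 8.69, 8.86, 8.75 and 8.87 against 7.65, 7.79, 7.70, 7.84 and 8.0 (-1.01 ± 0.08, adjusted p = 3.12e-08), Klc2 fell by 0.74 and Dctn4 by 0.68. With array medians at 0 the light and accessory chains gave 2 rises and 13 falls. Over all 64 kinesins and dyneins 10 rose (15.6%) and 21 fell (32.8%), shares near those of all genes, a balance that turned with array medians at 0 (21 rose and 16 fell), and rises numbered 6 without homogenate array 2, homogenate array 4 or synaptoneurosome array 1.

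Markers of cell types served to check what the fraction held. Of 15 astrocyte markers 8 rose and 0 fell (median 0.45), and the mean level of the list ranged from 11.90 to 12.15 in homogenate and from 12.24 to 12.88 in synaptoneurosomes. Slc1a3, a glial glutamate transporter, read 14.71, 14.61, 14.53, 15.09 and 14.77 against 15.36, 15.49, 15.56, 15.65 and 15.75, without overlap (0.82 ± 0.13, adjusted p = 6.69e-05). Slc1a2 (0.42 ± 0.07), Aqp4, the water channel of astrocytic endfeet (0.50 ± 0.12), and Gfap, a filament protein (0.76 ± 0.28), rose. The call of Gfap did not hold without any 1 of homogenate arrays 1, 2, 3 and 5 and synaptoneurosome arrays 1 to 3, with adjusted p-values from 0.0533 to 0.102. Its difference was 1.16 without arrays 4 and 5 (adjusted p = 0.00377). Of 17 microglia markers 9 rose and 0 fell, among them Aif1 (0.49 ± 0.07), Tyrobp (0.61 ± 0.12) and Gpr34 (0.98 ± 0.22), and 5 rose without arrays 4 and 5. The mean level of this list ranged from 7.34 to 7.55 in homogenate and from 7.60 to 8.67 in synaptoneurosomes. Their part in the rises of surface and lysosomal genes was not tested. Ctss, a cathepsin in both the microglia and the lysosome list, rose by 1.55, the largest value in each. Of 13 oligodendrocyte markers 0 rose and 2 fell, and myelin basic protein, Mbp, did not pass (9.79 ± 0.20 and 9.71 ± 0.54, mean ± SD of 5 arrays, adjusted p = 0.78). The falls numbered 4 without synaptoneurosome array 2, and 1 without homogenate array 2 or 3 or synaptoneurosome array 1. Of 11 markers of oligodendrocyte precursors 3 rose and 2 fell, or 5 and 0 after quantile scaling and 8 and 0 with array medians at 0, and 2 and 1 without arrays 4 and 5. Ptprz1, a surface phosphatase (1.12 ± 0.10), and the matrix protein Vcan (0.79 ± 0.18) rose, and the transcription factor Olig2 (-0.39 ± 0.12) fell, which did not pass after quantile scaling (adjusted p = 0.158) or with array medians at 0 (adjusted p = 0.106).

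Neuronal markers went both ways. Of 11 markers of excitatory neurons 2 rose and 5 fell, with 1 rise without homogenate array 4 or 5 or synaptoneurosome array 1 or 3, or without arrays 4 and 5. The transcription factors Neurod6 (-1.34 ± 0.22) and Neurod2 (-0.82 ± 0.16) fell, and Sv2b, a vesicle protein, rose by 0.89, or 0.50 without arrays 4 and 5 (adjusted p = 0.136). Slc17a7, the vesicular glutamate transporter, read 16.27 ± 0.21 in homogenate and 16.37 ± 0.52 in synaptoneurosomes (mean ± SD, adjusted p = 0.721). The split among synaptoneurosome arrays was plain in interneuron markers. Sst, somatostatin, read 10.35, 9.54, 9.17, 9.82 and 10.51 in homogenate and 8.31, 8.05, 7.44, 11.57 and 13.32 in synaptoneurosomes: arrays 1 to 3 lay below all homogenate arrays and arrays 4 and 5 above them (-0.14 ± 0.91, adjusted p = 0.915). Without arrays 4 and 5 its difference was -1.94 (adjusted p = 0.0238). Gad1, which makes GABA, had -0.52 ± 0.29 with all arrays (adjusted p = 0.168) and -1.05 without arrays 4 and 5 (adjusted p = 0.00281). Of 15 interneuron markers 3 rose and 1 fell, or 1 and 5 without arrays 4 and 5. The falls numbered 2 without synaptoneurosome array 2 or 4 and 3 without array 5. Reln, secreted reelin, rose by 1.39 ± 0.25 and the transcription factor Dlx1 fell by 0.44. Of 18 markers of hippocampal subfields 2 rose and 8 fell, with 4 rises without synaptoneurosome array 2 and 1 without array 4, array 5 or both. Trpc6, a cation channel, rose by 1.03 ± 0.24, and Stxbp6 (-0.62 ± 0.07), Rgs14 (-0.61 ± 0.11) and Ociad2 (-1.04 ± 0.24) fell. Of 17 markers of neurons from outside the hippocampus 9 were bright enough to be tested, with a median of 0.00, 2 rises and 0 falls. Of 9 choroid plexus markers 0 rose and 1 fell, and transthyretin, Ttr, did not pass (6.10 ± 0.32 and 6.12 ± 0.19, mean ± SD). Of 4 blood genes 0 passed, with haemoglobin beta, Hbb, at -0.41 ± 0.24 (adjusted p = 0.173, or 0.0411 with the replicate block). Values in the table do not reach 0, the lowest being 2.11, so a low value does not show that a marker was present.

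**Figure D5:**
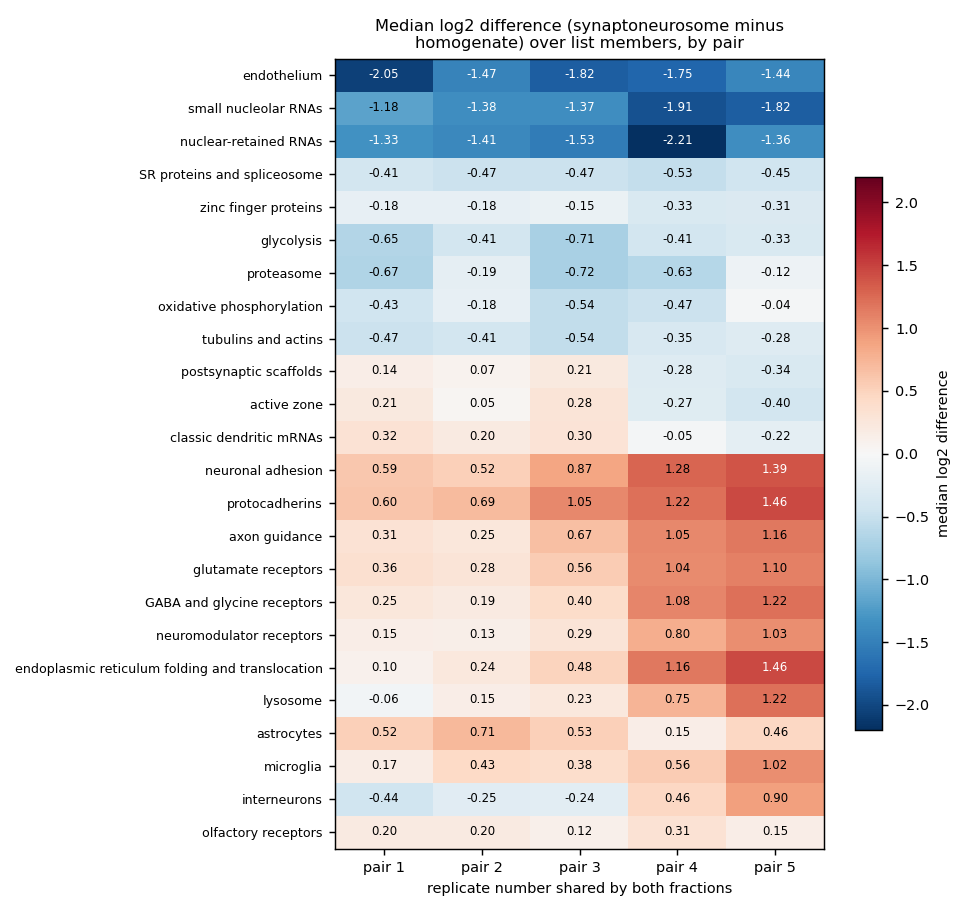
Median log2 difference (synaptoneurosome minus homogenate) over the members of 24 gene lists, for each of the 5 pairs of control arrays with the same replicate number. Endothelium, small nucleolar RNAs and nuclear-retained RNAs are below -1 in all 5 pairs, while receptors, endoplasmic reticulum and lysosome rise most in pairs 4 and 5 and scaffolds and active zone are below 0 there.

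Other properties of the genes were set beside the differences as descriptions. By mean level, the share of genes that rose was 17.1% in the dimmest of 10 equal classes, 6.4% in the fourth and 25.0% in the brightest, and the share that fell was 4.07%, 30.1% and 29.0%. Olfactory receptors, which the hippocampus is not known for and which lie near the bottom of the scale, gave 37 rises and 0 falls among 119 tested genes, with a median of 0.21. The number was 18 without homogenate array 2 or synaptoneurosome array 4, 20 without arrays 4 and 5, and 80 with array medians at 0. The differences of olfactory receptors ran up to 0.64, above those of the 3 microRNA precursors that rose most steadily. By span on the genome in RefSeq, protein-coding genes that rose at least 2-fold had a median of 72.2 kb (304 genes) and those that fell at least 2-fold 18.4 kb (174 genes), against 23.8 kb for all 14095 tested. In the longest of 10 equal classes by span, with a median of 242 kb, 22.9% rose and 22.1% fell, and in the shortest, with a median of 1.78 kb, 11.5% rose and 18.4% fell. By RefSeq type of gene, 12.0% of 14095 protein-coding genes rose and 29.4% fell, and 9.93% of 453 long non-coding RNAs rose and 10.6% fell.

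The same comparison was made between the fractions of rats injected with the mimic, on their 10 arrays. It came from the same fit, so each gene's estimate of spread is shared with control rats. There 6453 genes (41.7%) passed, 1697 (11.0%) higher and 4756 (30.8%) lower in synaptoneurosomes. Of the genes that were higher in control rats 63.0% were also higher in mimic rats, which is 67.5% of those of mimic rats, and of the lower genes 87.9% and 80.1% were shared, with 0 calls in opposite directions. Of the 28 genes with the largest rises and falls in control rats, 27 passed in the same direction in mimic rats. The exception was Rpph1 (-0.91, adjusted p = 0.213). Endothelial markers again fell in 15 of 15 and nuclear-retained RNAs in 8 of 8, with medians of -1.99 and -1.41. Neuronal adhesion genes rose in 51 of 73 (median 0.82), and genes of oxidative phosphorylation fell in 68 of 92 (median -0.59). The test of the difference itself, the fraction effect in mimic rats minus that in control rats in limma, passed for 0 of 15465 genes, with 243 at an unadjusted p below 0.05 and a smallest adjusted p of 0.998. With the replicate block 0 genes passed, 494 had an unadjusted p below 0.05 and the smallest adjusted p was 0.967. Both 243 and 494 are fewer than 1 in 20 of the genes, the share that chance gives at an unadjusted p below 0.05.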

How the data were processed

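RNA of 20 arrays in 4 groups (2 fractions, each from control and mimic rats, 5 arrays a group) had been measured on an Affymetrix whole-transcript array. The deposited values are log2 intensities summarised by RMA, as the submitters' processing notes name it beside the Transcriptome Analysis Console; which versions and options they used is not given in the sources used here. Array medians ran from 5.11 to 5.26 and values from 2.11 to 19.93. The number of arrays limits the precision. Groups were taken from sample titles.

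Of 68842 probe sets, 23446 had 1 symbol in the platform annotation, 505 had several and 44891 had none, and only the first kind was used. The brightest probe set by the mean over 20 arrays stood for each of 22093 genes, and the dimmest 30% were left out, below a log2 value of 4.97. Group means of all 20 arrays were fitted with limma 3.58.1 in R 4.3.3 (lmFit and eBayes), so the spread and each SE are pooled over 4 groups. P-values are two-sided, with Benjamini-Hochberg adjustment over 15465 genes. Within-fraction components and counts were made with pandas 2.3.3, numpy 2.4.6 and scipy 1.17.1, and figures with matplotlib 3.10.9, all in Python 3.11.15. The fit was tested on simulated data.

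Named genes were the 14 largest rises and 14 largest falls without overlap between fractions, the 3 members of each list with the smallest p in each direction (or the 2 with the smallest p where none passed), and a few defining markers. Sst, Ctss, Tie1, Meg3, Egr1, Tubb5, Grin1 and 5 microRNA precursors were named after their values were seen. Members and lists were chosen with earlier results of these data known. Same-numbered control arrays deviated together, with correlations across genes of 0.241 to 0.476 against -0.268 to 0.13 for other pairs, and their numbers, given by the titles, were taken to pair them. Alternatives were another scaling, filter, probe set rule, variance model or threshold, a replicate block, only the 10 control arrays, and arrays left out.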

Additional observations from a re-analysis of the deposited data

Results flagged for a closer look

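Within a fraction, an array was looked at again where its gap to the nearest other array took more than 0.71 of the range of the 5 arrays, which is Dixon's 95% limit. Among 438 combinations of a named gene and a fraction 29 passed it, and chance passes about 1 in 20. Synaptoneurosome array 2 accounted for 7, homogenate arrays 2 and 5 for 5 each, and synaptoneurosome arrays 4 and 5, which stood apart across all genes, for 1 and 2.

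The homogenate values are log2 levels of the array, set against the range of the other 4. Array 1 was the lowest for Pgam1 (14.4 against 14.61 to 14.69). Array 2 was the lowest for Kcnab1 (11.96 against 12.13 to 12.19). Array 3 was the lowest for Flt1 (9.38 against 9.65 to 9.75), Ephb4 (5.59 against 5.86 to 5.89) and Iars2 (9.23 against 9.51 to 9.62). Array 5 was the lowest for Ccnl1 (7.7 against 8.18 to 8.24), Zkscan3 (7.47 against 7.65 to 7.7) and Grm3 (11.99 against 12.21 to 12.29). Array 1 was the highest for Egr1 (10.48 against 9.57 to 9.68) and Pclo (14.15 against 13.87 to 13.92). Array 2 was the highest for Unc13c (9.01 against 7.08 to 7.51), Sv2c (9.44 against 8.31 to 8.49), Samd4a (8.78 against 8.03 to 8.14) and Gad1 (13.81 against 13.14 to 13.32). Array 5 was the highest for Pdia3 (14.4 against 14.1 to 14.18) and Adra1a (8.14 against 7.7 to 7.81).

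The synaptoneurosome values are log2 levels of the array, set against the range of the other 4. Array 1 was the lowest for Mog (8.41 against 9.62 to 9.84). Array 2 was the lowest for Slc16a7 (9.52 against 9.84 to 9.94). Array 4 was the lowest for Srsf6 (7.26 against 7.47 to 7.55). Array 5 was the lowest for Cnot1 (11.49 against 11.73 to 11.78). Array 2 was the highest for Ephb4 (5.57 against 5.38 to 5.42), Mir29a (5.57 against 4.63 to 4.9), Ndufv3 (8.13 against 7.78 to 7.86), Elavl1 (8.08 against 7.94 to 7.97), Slc4a4 (14.81 against 13.76 to 14.04) and Usp18 (5.15 against 4.9 to 4.95). Array 3 was the highest for Pecam1 (6.4 against 6.09 to 6.16) and Neurod2 (11.2 against 10.51 to 10.7). Array 5 was the highest for Dnajb4 (9.41 against 9.07 to 9.16).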

How the results depend on the processing

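The split of calls into higher and lower depended on the scaling, while the total moved by more than 1.5 times only at the stricter threshold. With array medians at 0, 4284 genes were higher and 2285 lower, and at least 2-fold differences numbered 529 higher and 121 lower. After quantile scaling 2472 genes were lower, and at least 2-fold differences numbered 494 higher and 134 lower. With no filter on dim genes 3287 were higher, of 22093 tested, and 43.1% of the calls were higher. At an adjusted p below 0.01 the total was 3897 and the higher genes were 886. Leaving out single arrays gave totals of 5428 to 6252. The replicate block gave 6747 calls, and among 219 named genes it ended the call of Snrpd1 and added one for Hbb, with no other call changed. The 10 control arrays alone gave 4891 calls. Syt7 turned to -0.35 (adjusted p = 0.128) when its probe sets were averaged, which include one at -1.04; this was the only reversal among the named genes. For named genes the calls lost numbered 12 after quantile scaling, 11 with array medians at 0, 15 with the 10 control arrays alone and 16 without synaptoneurosome arrays 4 and 5; beyond the values given for single genes, the cause was not tested. Dim probe sets near the filter limit the smallest differences. Levels of different genes were not compared, and mature microRNAs and proteins were not measured.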

Other observations

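Lists that the text above has not described moved little. Of 48 genes of collagens and laminins, the scaffold of basement membranes and matrix, 4 rose and 2 fell, with Lamb1 highest at 1.08. With array medians at 0, 30 of them rose, and without synaptoneurosome arrays 4 and 5, 2 rose and 1 fell. Of 31 genes of the major histocompatibility complex and antigen presentation 4 rose and 0 fell, with B2m, the light chain of class I molecules, highest at 1.07. Of 13 interferon response genes 0 rose and 1 fell, and of 5 tested leukocyte markers 1 rose, Ptprc, at 0.65. Lamb1, B2m and Ptprc are named as the highest members after their values were seen.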
